A study of Mus musculus with 2 samples.

Results

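The 44 genes described here are the cell cycle genes of a fixed list, taken from all 32285 genes of the count tables by their symbols. They comprise 22 genes of the G2 and M phases, 17 genes of S phase and of the entry into it, the 3 D cyclins, and the pair Stmn1 and Hmgb2. All 44 were present in both libraries. The cells came from optic nerves of mice that model low-grade optic glioma in neurofibromatosis type 1 (Nf1-OPG, genotype Nf1flox/neo; GFAP-Cre). In these mice 1 Nf1 copy carries a neomycin cassette in exon 31 in every cell, and the floxed copy is lost where the GFAP promoter drives Cre, in neuroglial progenitors. At 12 weeks of age, nerves of 10 mice were pooled per library, dissociated, cleared of debris and myelin, sorted for live cells with the dye 7-AAD, and read with 10x Genomics 5′ single-cell chemistry. The protocol text also mentions cells of the dura, the outer meninx. There was 1 library from mice treated with an antibody to PD-1 (Pdcd1) and 1 from mice treated with an antibody to TIGIT. Both proteins are inhibitory receptors of T cells. Untreated and non-tumour mice were not analysed here.

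As background, a dividing cell passes through G1, S, G2 and M. The D cyclins respond to growth signals in G1 and, with their kinases, inactivate the retinoblastoma proteins, which frees E2F factors to turn on replication genes. Later the MuvB complex, with B-Myb and FoxM1, turns on the mitotic genes, many of which carry a short promoter element called the cell cycle homology region (CHR). In the optic nerve, oligodendrocyte precursor cells (OPCs) are a dividing glial population, whereas mature oligodendrocytes are post-mitotic.

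The promoter letters of the members followed these phases in part, with CHR letters in most G2/M genes and E2F letters in a minority of S phase genes. RefSeq promoters (build GRCm38.p6, 250 bases before to 50 bases after the annotated start) were held for 35 of the 44 members, and 27025 promoters in all were searched on both strands. The CHR letters TTTGAA or TTCGAA were in 15 of 19 promoters of G2/M genes, in 2 of 14 of S phase genes (Mcm2 and Mcm7), and in 19.4% of all promoters. In 14 of those 15 a match lay within 50 bases of the start. The E2F letters TTTCCCGC, TTTGGCGC or TTTCGCGC were in 5 of 14 S phase promoters (Cdc6, Mcm3, Mcm5, Mcm6 and Mcm7), in 1 of 19 G2/M promoters (Cdk1), and in 1.91% of all promoters. The CCAAT box, read as CCAAT, was in 17 of 19, in 9 of 14 and in 37.9% of all. All 15 G2/M promoters with a CHR also held a CCAAT box, against 7.70% of all promoters with both. These are matches of letters, not measured binding sites.

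The 250 bases before the start are printed for 4 members to show both kinds of promoter, 5′ to 3′ on the gene's strand, with CHR letters in capitals in Top2a and Ube2c and E2F letters in capitals in Mcm6 and Cdc6. Top2a (topoisomerase II alpha, which untangles sister chromatids; chr11:99024190-99024439, minus strand) held 4 CHR matches, which began 179, 140, 120 and 23 bases before the start. Ube2c (the ubiquitin-conjugating enzyme of the anaphase-promoting complex; chr2:164769679-164769928, plus strand) held 1, which began 29 bases before it. Mcm6 (a subunit of the replicative helicase; chr1:128359706-128359955, minus strand) held 3 E2F matches, of which those 110 and 106 bases before the start overlapped. Cdc6 (a loader of that helicase; chr11:98907901-98908150, plus strand) held 1.
Top2a: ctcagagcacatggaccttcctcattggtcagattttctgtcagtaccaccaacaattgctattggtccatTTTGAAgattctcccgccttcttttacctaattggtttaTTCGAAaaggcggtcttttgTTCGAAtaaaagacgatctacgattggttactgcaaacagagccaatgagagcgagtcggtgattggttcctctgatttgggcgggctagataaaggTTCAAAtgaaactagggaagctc
Ube2c: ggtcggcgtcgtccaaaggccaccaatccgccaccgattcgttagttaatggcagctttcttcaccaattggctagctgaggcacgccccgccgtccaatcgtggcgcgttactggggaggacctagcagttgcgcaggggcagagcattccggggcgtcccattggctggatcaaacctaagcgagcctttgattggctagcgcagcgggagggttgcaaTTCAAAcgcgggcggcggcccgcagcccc
Mcm6: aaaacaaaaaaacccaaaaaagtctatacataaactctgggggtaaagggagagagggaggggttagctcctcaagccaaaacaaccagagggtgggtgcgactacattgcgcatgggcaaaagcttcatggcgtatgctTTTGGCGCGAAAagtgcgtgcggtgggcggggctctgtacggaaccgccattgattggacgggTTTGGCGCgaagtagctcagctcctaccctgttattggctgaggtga
Cdc6: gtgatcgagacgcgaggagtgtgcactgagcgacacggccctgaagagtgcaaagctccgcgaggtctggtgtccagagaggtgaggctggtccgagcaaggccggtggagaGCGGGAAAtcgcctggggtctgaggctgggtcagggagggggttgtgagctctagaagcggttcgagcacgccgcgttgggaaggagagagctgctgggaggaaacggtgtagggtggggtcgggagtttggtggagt

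**Figure D1:**
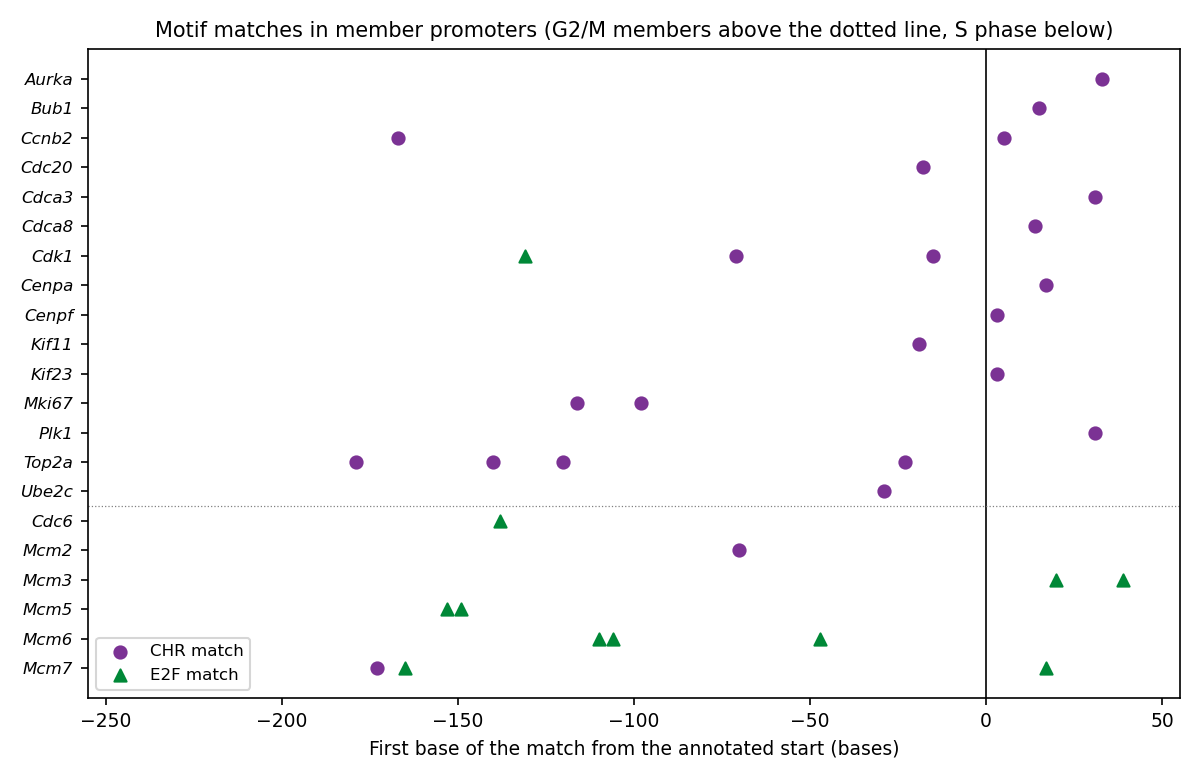
Position of CHR (circles) and E2F (triangles) letters in promoters of member genes that held either, in bases from the annotated start (x axis), with G2/M genes above the dotted line and S phase genes below it. CHR matches sit near the start in 14 of the 15 G2/M promoters that hold one, and E2F matches are mostly in S phase promoters.

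The anti-PD-1 library held 85031565 UMIs (unique transcript molecules) in 13997 barcodes and the anti-TIGIT library 40733655 in 7915, of which 13229 and 7499 cells were retained. Median depths were 4459 and 4126 UMIs per cell. The 44 genes took 101389 and 60276 UMIs, or 0.128% and 0.155% of all, and none was at 0 in either library. Classes of cells were set by gates on marker genes, so that a class name stands for cells with those markers. The gates left 17.8% and 17.9% of cells unnamed, and 15 classes had at least 50 cells in each library. Oligodendrocytes, the resident myelinating glia, were 21.0% and 27.5% of cells and T cells 24.5% and 19.0%. After thinning each cell to 1000 UMIs, Mog was read in 76.7% and 80.4% of oligodendrocytes, Pdgfra in 55.9% and 66.7% of OPCs, and Cd8a in 64.0% and 56.5% of CD8 T cells. Xcr1 was read in 21.6% and 11.9% of type 1 dendritic cells. P2ry12 was read in 34.3% and 60.0% of microglia, and Dcn in 25.6% and 37.3% of fibroblasts. All of these genes are markers used by the gates, so the shares describe the gates and do not test them. Plasma cell RNA outside plasma cells differed between the libraries: thinned in the same way, 20.7% of oligodendrocytes under anti-PD-1 and 6.25% under anti-TIGIT had a Jchain UMI. The libraries also shared 148 barcodes among retained cells. Male and female cells were pooled, and 23.3% and 19.9% of cells held Xist. With 1 library per treatment no test was possible. All intervals below are exact, at 95%, and cover counting error only; UMIs of the same cell are not independent, so intervals of summed UMIs are too narrow.

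Cells with transcripts of several mitotic genes were few and were found mainly among immune cells, and in the anti-PD-1 library also among OPCs. A cell was placed in the mitotic gate when it had UMIs of at least 2 different G2/M genes after thinning to 1000 UMIs, or of at least 3 without thinning. With thinning, 179 of 11964 cells (1.5%, interval 1.29 to 1.73) passed under anti-PD-1 and 119 of 6978 (1.71%, 1.41 to 2.04) under anti-TIGIT. Without thinning the order turned, with 2.70% (357 cells) and 2.21% (166 cells). When both libraries were weighted to the same makeup of classes, an alternative chosen after seeing the data, the thinned shares were 1.30% and 1.78%. Just inside the unthinned limit lay 97 and 27 cells with 3 genes, and just outside it 382 and 145 cells with 2. Far past it, 147 cells (1.11%, 0.94 to 1.30) and 91 cells (1.21%, 0.98 to 1.49) held at least 10 of the 22 genes. Doublet calls, removed here, were 5.05% and 2.35% of mitotic-gate barcodes and 4.47% and 1.97% of the others.

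In the anti-PD-1 library the highest thinned shares were in type 1 dendritic cells (cDC1), regulatory T cells and CD8 T cells. In cDC1, 11 cells (3.72%, 1.87 to 6.55) passed under anti-PD-1 and 7 (6.42%, 2.62 to 12.8) under anti-TIGIT. In regulatory T cells the shares were 3.12% (10 cells, 1.5 to 5.65) and 7.32% (6 cells, 2.73 to 15.3). In CD8 T cells they were 2.91% (44 cells, 2.13 to 3.89) and 3.52% (22 cells, 2.22 to 5.28), and without thinning 5.58% and 5.41%. Each pair of intervals overlapped, which does not by itself place a difference within counting error. Conventional CD4 T cells had 1.90% (0.92 to 3.47) and 4.29% (2.30 to 7.23). Plasma cells, which are mostly terminally differentiated, had 1.55% and 3.11%, and B cells 1.47% and 3.14%. All T cells together had 2.60% and 3.50%, and made up 45.9% and 37.3% of the unthinned mitotic-gate cells.

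OPCs had the highest share among glia in the anti-PD-1 library, where 19 of 662 (2.87%, 1.74 to 4.45) passed, whereas 1 of 102 passed in the anti-TIGIT library (0.98%, 0.02 to 5.34). Microglia were low in both, at 0.53% (0.23 to 1.04) and 0.65% (0.13 to 1.89). Mature oligodendrocytes were low too, with 12 cells (0.47%, 0.24 to 0.82) and 1 cell (0.05%, 0.00 to 0.28). Their median depths before thinning were 6318 and 6177 UMIs outside the gate, against 3228 and 2692 UMIs in T cells. The part of detection background in the oligodendrocyte shares was not tested. Without thinning, up to 20 and 19 G2/M genes were read in an oligodendrocyte, and 2 and 1 oligodendrocytes held at least 10. Of the 13 mitotic-gate ones under anti-PD-1, 8 held 3. Those 13 had a median depth of 3865 UMIs, less than outside the gate. After thinning, Cd3e, read mostly in T cells, was read in 3.31% and 0.25% of oligodendrocytes. What the mitotic-gate oligodendrocytes are was not tested. Microglia and fibroblasts lay near the oligodendrocyte share in the anti-PD-1 library. No monocyte of 57 and no fibroblast of 360 passed there, which allows shares of up to 5.26% and 0.833% on a limit of 3 cells (exact upper bounds 6.27% and 1.02%), while 4 monocytes (6.90%, 1.91 to 16.7) and 2 fibroblasts (1.24%) passed in the anti-TIGIT library. Over the 15 classes the anti-PD-1 share was the higher in 3 and the lower in 12. Without thinning it was the higher in 7 and the lower in 8. The 2 thinned intervals of a class overlapped in all 15, which does not by itself place a difference within counting error. In oligodendrocytes they overlapped only from 0.24 to 0.28.

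**Figure D2:**
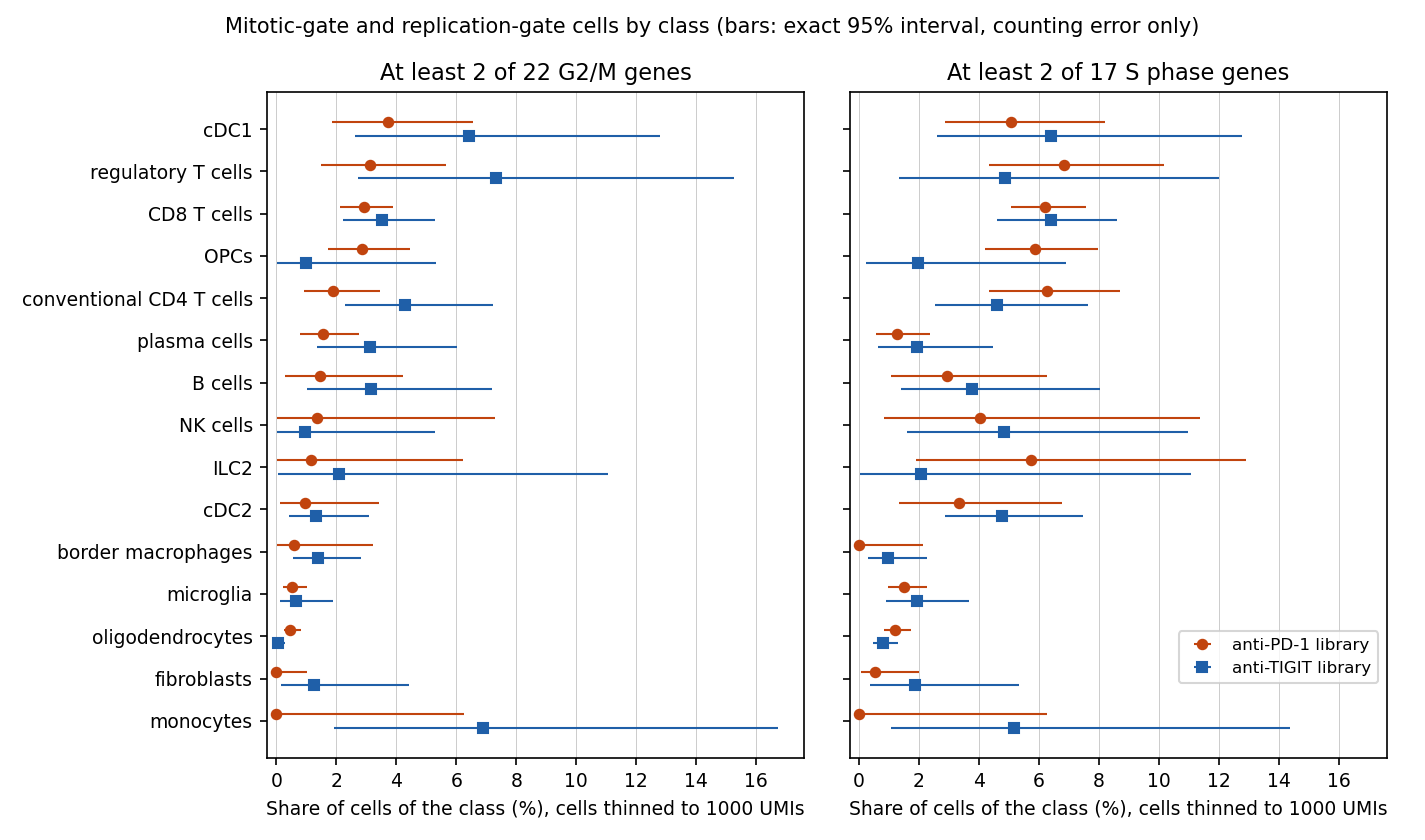
Share of cells of each class in the mitotic gate (left) and the replication gate (right), in percent of cells thinned to 1000 UMIs, with circles for the anti-PD-1 and squares for the anti-TIGIT library and bars for exact 95% intervals of counting error. Intervals of the libraries overlap in all 15 classes in both panels, which does not by itself place a difference within counting error. Under anti-PD-1, cDC1, T cells and OPCs lie above microglia and oligodendrocytes.

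A replication gate, set the same way on the 17 S phase genes, passed 368 cells (3.08%, 2.77 to 3.40) and 181 cells (2.59%, 2.23 to 2.99). CD8 T cells reached 6.23% and 6.40%, conventional CD4 T cells 6.27% and 4.62%, and regulatory T cells 6.85% and 4.88%. OPCs had 5.89% (4.22 to 7.97) and 1.96% (0.24 to 6.90). Oligodendrocytes again gave a low level, 1.22% and 0.81%, and microglia 1.52% and 1.95%. Intervals overlapped in all 15 classes after thinning. Without thinning 9.15% and 6.88% of all cells passed, and the intervals lay apart in OPCs and oligodendrocytes. Weighted to the same makeup, the thinned shares were 2.85% and 2.73%.

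Few cells carried most of the G2/M transcripts, so that a ratio of summed UMIs rests on the number of mitotic-gate cells behind it. A mitotic-gate cell held a median of 12 and 23 G2/M UMIs, and at most 321 and 435. From 54.8% (Cenpa) to 96.9% (Bub1) of the UMIs of each G2/M gene lay in mitotic-gate cells in the anti-PD-1 library, a share that the gate itself sets, against 5.41% of all UMIs. Of the S phase genes, which the gate did not use, Rrm2 (a subunit of ribonucleotide reductase) had 89.1% and 91.1% of its UMIs in those cells, and Pcna (the sliding clamp of DNA polymerase) 18% and 16.2%. Pcna was thus read mostly outside mitotic-gate cells. The D cyclins had 6.48% to 8.78% and 4.66% to 7.16%, close to the share of all UMIs.

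Over all cells, no member differed by 2-fold between the libraries on log2(CPM + 5), where CPM is counts per 1000000 UMIs of the cells summed. Of 20621 genes with at least 10 UMIs, 0.975% were higher by at least 2-fold in the anti-PD-1 library and 0.601% lower. G2/M genes were lower in the anti-PD-1 library in 20 of 22, with a median log2 ratio of -0.14 against -0.01 for all genes, and their summed level was 190 CPM against 230 CPM (log2 ratio -0.27, -0.31 to -0.23). S phase genes were higher in 11 of 17, with a median of 0.06, and their summed levels were 261 and 256 CPM (0.03, -0.01 to 0.06). Thinning before summing brought the G2/M ratio to -0.07 and turned Ccna2, Cdc20 and Aurka to higher values.

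Among the G2/M genes, Mki67 (the Ki-67 proliferation antigen, which coats mitotic chromosomes) was at 18.5 and 25.7 CPM (log2 ratio -0.47, -0.59 to -0.35). Ube2c was at 14.9 and 24.5 CPM (-0.72, -0.85 to -0.60), and Kif23, a kinesin of cytokinesis, at 4.65 and 8.03 CPM (-0.79, -1.01 to -0.57). These 3 lay furthest below 0 in the ratio. Top2a was at 21.1 and 23.9 CPM (-0.17, -0.29 to -0.06). Birc5 (survivin, of the chromosomal passenger complex) was at 14.2 and 14.6 CPM (-0.04, -0.19 to 0.11), within counting error. Cenpa, the centromeric histone H3 variant, and Nusap1, a spindle protein, were the 2 with ratios above 0, at 0.13 and 0.01. Mitotic kinases lay between these, with log2 ratios of -0.38 for Aurka, -0.21 for Aurkb, -0.14 for Cdk1 and -0.06 for Plk1, and the cyclins Ccna2, Ccnb1 and Ccnb2 were at -0.33, -0.10 and -0.44. The other G2/M genes (Bub1, Cdc20, Cdca3, Cdca8, Cenpe, Cenpf, Kif11 and Tpx2) were between -0.39 and -0.11, all below 0.

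Among the S phase genes, Mcm6 was at 24.7 and 20.3 CPM (0.28, 0.16 to 0.40), and the other helicase subunits Mcm2, Mcm3, Mcm4, Mcm5 and Mcm7 were between -0.01 and 0.17. Gins2, of the same helicase complex, was at 0.24 (0.04 to 0.45). Rrm1, the large subunit of ribonucleotide reductase, was at 24.9 and 28.4 CPM (-0.19, -0.29 to -0.08), and Pcna at 60.6 and 65.6 CPM (-0.11, -0.18 to -0.04). The E cyclins Ccne1 and Ccne2 were at 0.14 and 0.22 with intervals that held 0. The other S phase genes (Cdc6, E2f1, Rrm2, Tk1, Tyms and Uhrf1) were between -0.12 and 0.15. The set thus had small ratios in both directions.

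The widest ratios of all were those of Stmn1 and Ccnd1, which were read mostly outside mitotic-gate cells. Stmn1 (stathmin, which destabilises microtubules) was at 278 and 543 CPM (log2 ratio -0.96, -0.99 to -0.94), and 82.5% and 91.1% of its UMIs came from oligodendrocytes. Ccnd1 was at 121 and 66.8 CPM (0.86, 0.79 to 0.92), with 60.8% and 19.9% of its UMIs from OPCs, which were 5.08% and 1.39% of cells. Ccnd2 was at 83.8 and 103 CPM (-0.30, -0.35 to -0.24), and Ccnd3 at 166 and 161 CPM (0.05, 0.00 to 0.09). Hmgb2, a DNA-bending chromatin protein, was at 183 and 191 CPM (-0.06, -0.11 to -0.02). The direction of Ccnd2 turned in Xist-positive cells (0.18), that of Ccnd3 after thinning (-0.10) and that of Hmgb2 in Xist-positive cells (0.12).

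**Figure D3:**
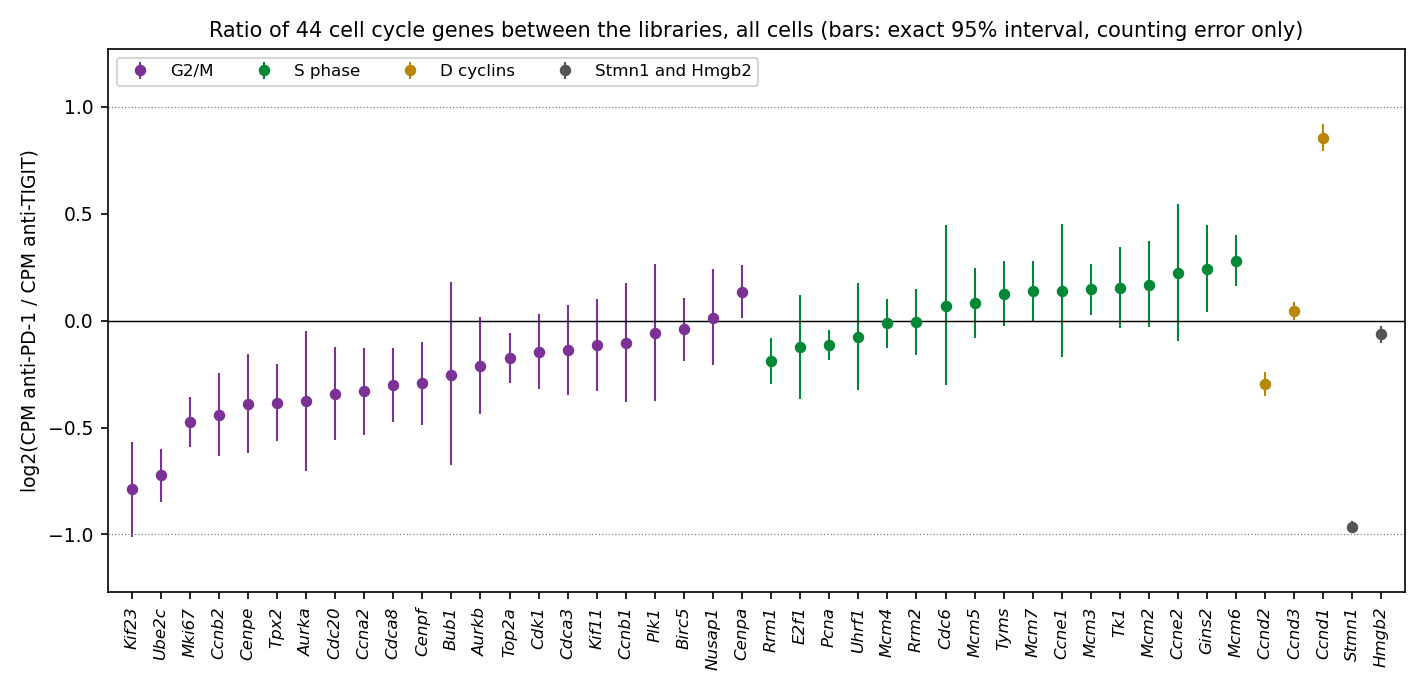
Log2 ratio of CPM, anti-PD-1 over anti-TIGIT library, for each of the 44 genes over all cells, coloured by role, with bars for exact 95% intervals of counting error and dotted lines at a 2-fold difference. G2/M genes lie mostly below 0, S phase genes on both sides of it, and Ccnd1 and Stmn1 lie nearest to the dotted lines, at 0.86 and -0.96.

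In CD8 T cells the members were lower in the anti-PD-1 library in 36 of 44, with a median log2 ratio of -0.19 against 0.00 for all genes, on 85 and 34 mitotic-gate cells. None was past 2-fold, where 1.58% of all genes were at least 2-fold higher and 0.638% at least 2-fold lower. Mki67 was at 45.1 and 84.4 CPM (-0.91, -1.17 to -0.64), Pcna at 80.7 and 130 CPM (-0.69, -0.89 to -0.48), and Top2a at 60.6 and 86.1 CPM (-0.51, -0.75 to -0.26). Rrm2, Kif23 and Uhrf1, which recruits the maintenance DNA methyltransferase, were at -0.69, -0.89 and -0.71. Ccnd2, at 143 and 247 CPM (-0.79, -0.94 to -0.64), was as far apart in cells outside the gate, at 147 and 268 CPM. In those cells Pcna was also lower, at 55.1 and 85.5 CPM (-0.63, -0.90 to -0.36), whereas Mki67 was at 10.6 and 12.7 CPM (-0.26, -0.94 to 0.46). Cenpa went the other way, at 96.7 and 52.8 CPM (0.87, 0.60 to 1.16), and at 56.3 and 27.4 CPM outside the gate (1.04, 0.63 to 1.47). Birc5 was at 49.1 and 42.2 CPM (0.22, -0.11 to 0.56), and Ccnb1 and Cdc20 were at 0.57 and 0.46 with intervals that held 0. Xist-positive cells were 28.7% and 10.7% of the class, and in cells with Y-linked transcripts the summed G2/M ratio turned from -0.16 to 0.09. The part of these shares in the result was not tested.

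In conventional CD4 T cells, G2/M genes were lower in 20 of the 21 that passed the minimum, with a summed log2 ratio of -0.81 (-0.96 to -0.66), while the S phase sum was at -0.04 (-0.19 to 0.11). Here 3 members were at least 2-fold lower and 0 at least 2-fold higher, beside 1.03% and 3.16% of all genes, on 23 and 14 mitotic-gate cells. Ube2c was at 21.9 and 99.3 CPM (-2.18, -2.73 to -1.65). Cenpf, a kinetochore protein, and Ccnb2 were at -1.33 and -1.19. Mki67 was at 40.3 and 65.5 CPM (-0.70, -1.20 to -0.20), and Top2a and Pcna were at -0.37 and -0.17 with intervals that held 0. The G2/M sum did not keep its direction within Xist-positive cells (0.13) or within cells with Y-linked transcripts (0.15).

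In regulatory T cells, on 20 and 6 mitotic-gate cells, 10 of 43 members were at least 2-fold lower and 1 at least 2-fold higher, beside 3.52% and 5.51% of all genes. In the anti-TIGIT library a single cell carried 42.5% of the G2/M UMIs. Ube2c was at 28.6 and 111 CPM (-1.95, -2.64 to -1.25), Mcm3 at 43.6 and 97.9 CPM (-1.17, -1.81 to -0.49), and Rrm1 at 41.5 and 91.6 CPM (-1.14, -1.81 to -0.45). Mki67, Top2a and Pcna did not differ beyond counting error, at -0.23 (-0.73 to 0.29), -0.30 (-0.79 to 0.22) and 0.02 (-0.56 to 0.64).

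In OPCs the summed G2/M level was 471 and 163 CPM (log2 ratio 1.53, 1.18 to 1.90), and in Xist-positive OPCs the ratio was 0.10 (-0.28 to 0.49). In this class 16 of 44 members were higher by at least 2-fold and 0 lower, beside 4.35% and 3.13% of all genes. All 16 had under 10 UMIs in the anti-TIGIT library, whose OPCs held 423216 UMIs against 3904330, so they passed the minimum through the library in which they were high and the count describes the cells behind it. The median log2 ratio was 0.79 against -0.10 for all genes. With the 7 genes at 0 in the anti-TIGIT library set to 3 UMIs, 12 members were past 2-fold and the median was 0.64. Top2a had 152 UMIs in the anti-PD-1 library and 1 in the anti-TIGIT library (4.04, 1.54 to 9.36), Mki67 73 and 2, Cdk1 107 and 1, Birc5 113 and 2, Rrm2 80 and 0, and Nusap1 57 and 0. These values rest on 27 and 2 mitotic-gate cells, and a single cell carried 17.5% and 68.1% of the G2/M UMIs. Genes that are also read in resting cells differed less: Pcna was at 82.7 and 66.2 CPM (0.32, -0.24 to 0.93), Rrm1 at -0.11, and Mcm4 at -0.04. Hmgb2 was at 190 and 96.9 CPM (0.97, 0.52 to 1.46).

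In cDC1 the G2/M genes summed to 309 and 791 CPM (log2 ratio -1.36, -1.50 to -1.21), a ratio of -0.22 in cells with Y-linked transcripts and -0.49 with clusters in place of gates. Here 15 of 44 members were at least 2-fold lower in the anti-PD-1 library and 0 at least 2-fold higher, beside 1.8% and 2.2% of all genes, and 14 of the 15 were G2/M genes. The class had 35 and 14 mitotic-gate cells, and a single cell carried 34.7% of the G2/M UMIs of the anti-TIGIT library. Mki67 was at 32.2 and 99.2 CPM (-1.62, -2.05 to -1.19), Top2a at 36.0 and 89.8 CPM (-1.32, -1.75 to -0.88), Ube2c at 22.7 and 72.3 CPM (-1.67, -2.18 to -1.15), and Cdca8, of the passenger complex, at 13 and 43.2 CPM (-1.74, -2.41 to -1.05). S phase genes summed to -0.26 (-0.42 to -0.10), Pcna was at -0.35 (-0.73 to 0.05), and Mcm3, Mcm4 and Mcm7 had ratios above 0 with intervals that held 0. In plasma cells, with 26 and 19 mitotic-gate cells, all 22 G2/M genes had ratios below 0, against a median of 0.15 for all genes. There 4 members were at least 2-fold lower and 1 at least 2-fold higher, beside 0.572% and 2.7% of all genes. Ube2c was at 6.58 and 31.2 CPM (-2.25, -2.68 to -1.82) and Mki67 at 14.8 and 41.8 CPM (-1.50, -1.81 to -1.19), with Top2a at -1.28 (-1.66 to -0.89), whereas the S phase sum was at -0.07 (-0.20 to 0.07) and Pcna at -0.12 (-0.46 to 0.23). Xist-positive cells were 23.1% and 3.10% of plasma cells, and their part in the result was not tested.

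In B cells, 11 of 42 members were at least 2-fold lower and 1 at least 2-fold higher, beside 4.33% and 3.46% of all genes, on 9 and 8 mitotic-gate cells, of which a single cell carried 26.8% and 39.1% of the G2/M UMIs. Top2a was at 34.9 and 113 CPM (-1.69, -2.28 to -1.12) and Rrm2 at 16.1 and 65.6 CPM (-2.02, -2.90 to -1.21), with Mki67 at -1.02 (-1.78 to -0.28) and Pcna at -0.48 (-1.02 to 0.05). Monocytes had 0 and 5 mitotic-gate cells, and 23 of the 27 members that passed the minimum were at least 2-fold lower and 0 at least 2-fold higher, beside 9.19% and 3.82% of all genes. Mki67 had 1 and 36 UMIs and Top2a 1 and 32 in monocytes. Fibroblasts had 0 and 3 such cells, of which a single cell held 86.1% of the anti-TIGIT G2/M UMIs, and 20 of 35 members were at least 2-fold lower and 0 at least 2-fold higher, beside 1.74% and 1.55%. In these last classes a member passed the minimum mostly through the anti-TIGIT cells, so the counts describe those few cells.

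In microglia 0 of 43 members were past 2-fold in either direction, beside 1.09% higher and 2.26% lower of all genes, whose median log2 ratio was -0.18. The members' median was -0.11, on 17 and 5 mitotic-gate cells. The summed G2/M ratio was -0.23 (-0.45 to -0.01) and turned to 1.84 (1.26 to 2.48) in Xist-positive cells. Mki67 was at 6.01 and 9.29 CPM (-0.63, -1.40 to 0.21), Top2a at -0.64 (-1.32 to 0.10) and Pcna at -0.43 (-0.72 to -0.14). Ccnd2 was at 45.0 and 23.7 CPM (0.92, 0.48 to 1.39) and Gins2 had 78 and 4 UMIs (1.85, 0.43 to 3.76). In oligodendrocytes 1 of 41 members, Ccnd1, was at least 2-fold higher and 0 at least 2-fold lower, beside 2.13% and 0.195% of all genes. Mki67 had 34 and 9 UMIs and Top2a 46 and 3 in this post-mitotic class, while Pcna was at 74.4 and 72.0 CPM (0.05, -0.07 to 0.16). Stmn1 was at 913 and 1351 CPM there (-0.57, -0.59 to -0.54), on 18110 and 19212 UMIs, and this was the class with the most Stmn1 in both libraries.

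The D cyclins differed between lineages in both libraries. The orders given here are among the 15 classes compared, each of 50 cells or more per library. Ccnd1 was highest in OPCs, at 1486 CPM (1448 to 1525) and 1222 CPM (1119 to 1332), a log2 ratio of 0.28 (0.15 to 0.42) that turned to -0.22 in Xist-positive cells. It was next in type 2 dendritic cells (cDC2, 209 and 256 CPM) and cDC1 (175 and 178 CPM). Plasmacytoid dendritic cells, a smaller class outside this order, had 231 and 378 CPM. Border macrophages, monocytes and microglia followed at 123, 116 and 100 CPM under anti-PD-1, where the interval of monocytes (81.7 to 160) held the values of both others. In CD8 T cells Ccnd1 was at 6.11 and 3.80 CPM. In the 9 classes with under 50 CPM it was higher in the anti-PD-1 library in all 9. Several of these values rest on few UMIs. There were 1 and 0 in group 2 innate lymphoid cells, 4 and 1 in NK cells, and 22 and 1 in B cells. Regulatory T cells had 27 and 2, and conventional CD4 T cells 17 and 8. The sum of 8 OPC markers was higher in the anti-PD-1 library in 5 classes and lower in 4. In group 2 innate lymphoid cells 7 of the 8 markers were at 0 in each library. In oligodendrocytes Ccnd1 was at 19.9 and 3.59 CPM (2.47, 2.05 to 2.92) where the markers summed to 57.4 and 25.2 CPM, and in plasma cells at 14.7 and 4.23 CPM where they summed to 23.3 and 1.64 CPM. In fibroblasts Ccnd1 was at 35.4 and 19.3 CPM where the markers summed to 89.3 and 125 CPM. In regulatory T cells it was at 19.3 and 6.32 CPM where they summed to 11.4 and 12.6 CPM. The OPC marker Pdgfra is also a marker of the fibroblast gate, so the sum in fibroblasts cannot be read as OPC RNA alone. In OPCs themselves the 8 markers summed to 7799 and 10212 CPM. The part of free RNA in these low values was not tested.

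Among these classes Ccnd2 and Ccnd3 were highest in T cells or NK cells, where Ccnd1 was low. Not all lymphocyte lineages were high, since Ccnd3 was at 53.2 and 40.6 CPM in plasma cells. Smaller classes outside this order were high too. Ccnd3 was at 641 and 529 CPM in neutrophils, on 19 and 51 UMIs, and Ccnd2 at 279 and 325 CPM in migratory dendritic cells. Ccnd2 was highest in regulatory T cells under anti-PD-1 (296 CPM, 268 to 326) and in conventional CD4 T cells under anti-TIGIT (355 CPM, 319 to 395). In conventional CD4 T cells it was at 239 CPM in the anti-PD-1 library, a log2 ratio of -0.57 (-0.77 to -0.37), and in regulatory T cells at 278 CPM in the anti-TIGIT library, within counting error of the other. Group 2 innate lymphoid cells (ILC2) and cDC2 came next in the anti-PD-1 library, at 214 and 211 CPM, with overlapping intervals. Ccnd3 was at 458 and 429 CPM in conventional CD4 T cells, at 414 and 489 CPM in NK cells, and at 350 and 412 CPM in CD8 T cells, and it was lowest in oligodendrocytes, at 39.1 and 23.3 CPM. Hmgb2 was at 523 and 562 CPM in CD8 T cells and at 28.8 and 15 CPM in oligodendrocytes. It was thus low in the post-mitotic class in which Stmn1 was high.

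**Figure D4:**
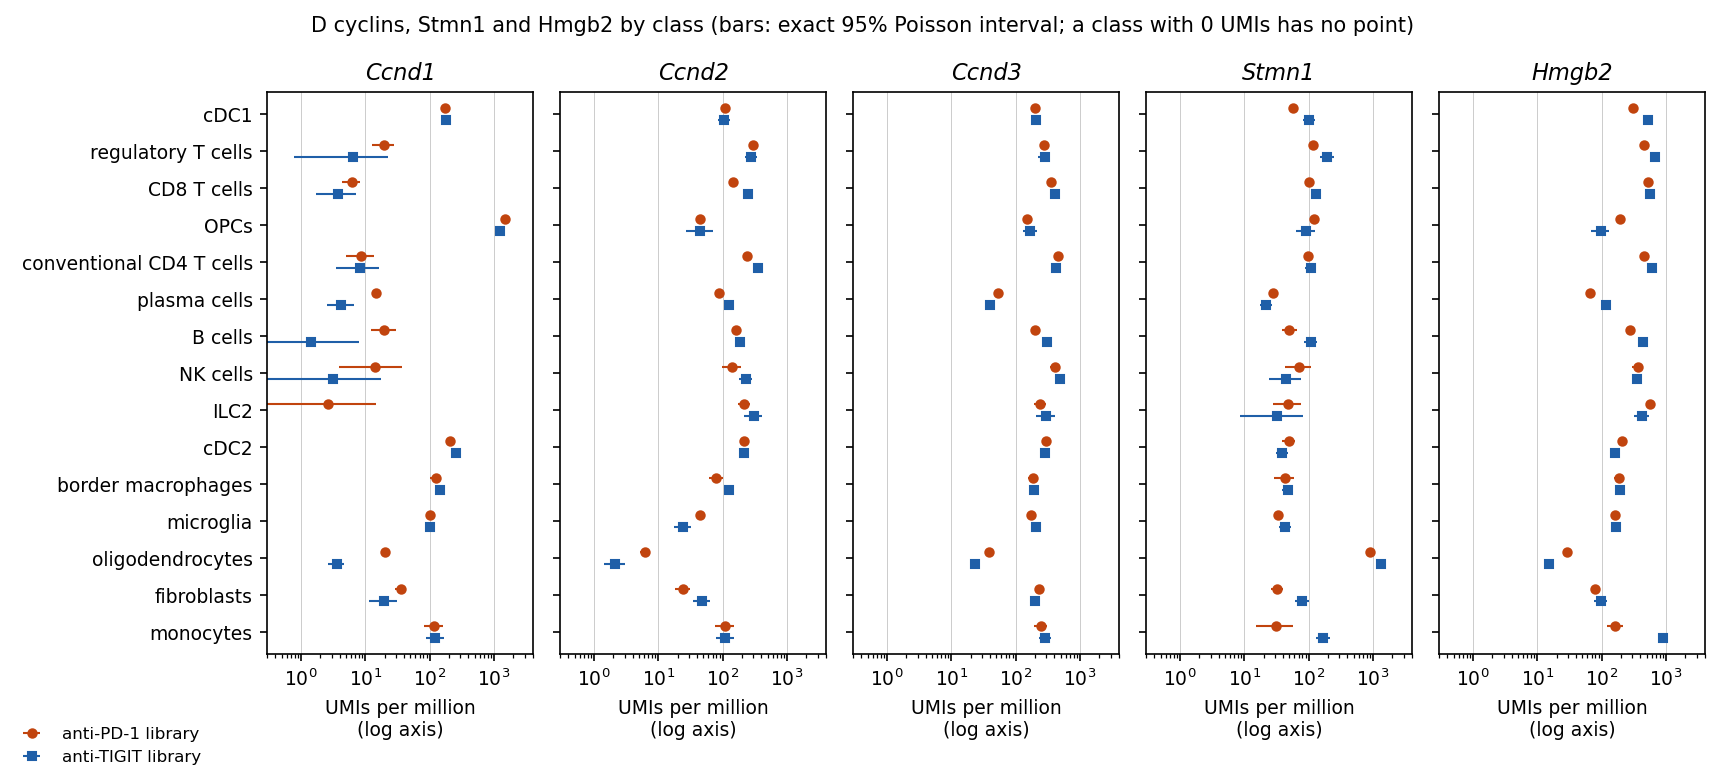
Level of the D cyclins, Stmn1 and Hmgb2 in each class in CPM (log axis), with circles for the anti-PD-1 and squares for the anti-TIGIT library and bars for exact 95% Poisson intervals. Among the classes shown, Ccnd1 peaks in OPCs, Ccnd2 in T cells, Ccnd3 in T cells or NK cells and Stmn1 in oligodendrocytes, in both libraries.

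Mitotic-gate T cells were then compared with the other T cells of the same library, on genes that the gate did not use. They numbered 164 against 3078 under anti-PD-1 and 62 against 1363 under anti-TIGIT, with median depths of 9510 against 3228 UMIs and 8319 against 2692 UMIs. All 17 S phase genes were at least 2-fold higher in mitotic-gate cells in both libraries, beside 3.51% and 5.64% of all genes, and 0 at least 2-fold lower, beside 1.18% and 5.1%. Their median log2 ratio was 2.22 and 2.59, against -0.07 and -0.05 for all genes. Rrm2 was at 236 CPM against 3.95 CPM (5.90, 5.47 to 6.37) and at 371 against 5.0 CPM (6.21, 5.56 to 6.93). Tk1, the thymidine kinase of the salvage pathway, was at 4.99 and 5.70, Pcna at 2.04 and 2.29, and Mcm6 at 1.63 and 1.92. Hmgb2 was at 1971 against 258 CPM and at 2517 against 312 CPM, and Stmn1 at 484 against 38.8 CPM and at 673 against 44.1 CPM. As a share of UMIs, Ccnd3 and Ccnd2 were lower in mitotic-gate T cells. Ccnd3 was at 258 against 397 CPM (-0.62, -0.76 to -0.48) and at 270 against 443 CPM (-0.71, -0.96 to -0.47). Ccnd2 was at -0.45 (-0.64 to -0.27) and -0.99 (-1.32 to -0.68). Mitotic-gate cells were deeper, so a lower CPM does not show fewer transcripts per cell.

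The related cell cycle genes outside the 44 followed the S phase genes. All 18 replication genes of the related list were at least 2-fold higher in both libraries, beside 3.51% and 5.64% of all genes. So were 26 of 26 and 25 of 25 mitotic genes that passed the minimum, and 8 of 13 kinases and Rb-E2F genes. The widest ratio in both was that of Pclaf, a PCNA-binding factor, at 463 against 2.69 CPM (7.43, 6.92 to 7.99) and at 632 against 4.05 CPM (7.29, 6.59 to 8.08). Hist1h1b and Hist1h2ae, replication-dependent histones, were at 6.16 and 5.75 and at 6.90 and 6.39, Spc24, of the kinetochore, at 6.42 and 5.66, and Cks1b, which binds cyclin-dependent kinases, at 4.87 and 4.93. The cyclin-dependent kinase inhibitors did not move as a group. Cdkn1b, which encodes p27 and holds cells in quiescence, was at 87.6 against 159 CPM (-0.86, -1.11 to -0.63) and at 91.9 against 164 CPM (-0.84, -1.28 to -0.43). Cdkn2a, Cdkn2c, Cdkn1a and Cdkn2d were higher, at 1.71, 1.32, 0.93 and 0.90 in the anti-PD-1 library and 3.51, 1.99, 1.25 and 1.07 in the anti-TIGIT library.

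**Figure D5:**
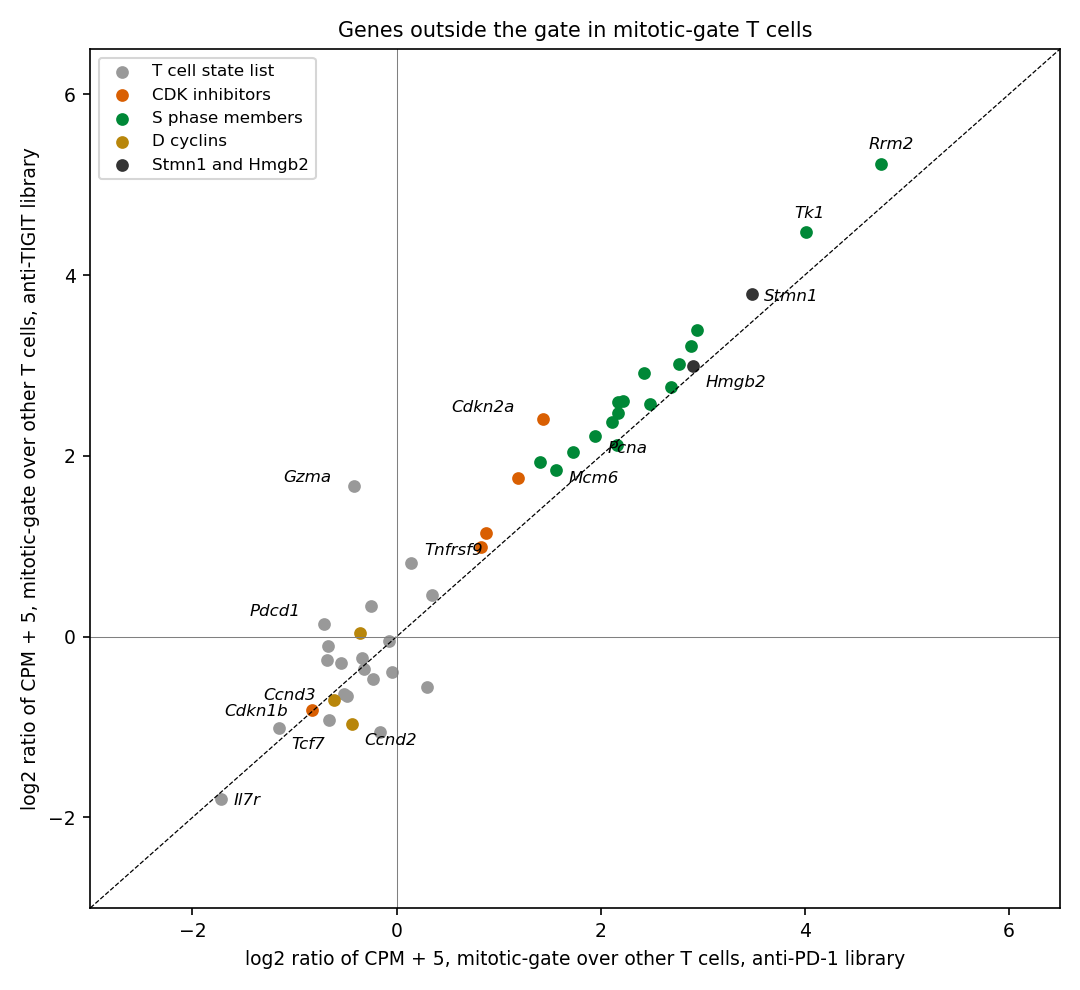
Log2 ratio of CPM + 5 in mitotic-gate over other T cells, anti-PD-1 library on the x axis and anti-TIGIT library on the y axis, with a point per gene coloured by list and the dashed line marking equal ratios. S phase genes lie at the upper right in both libraries, with Rrm2 furthest out, and Il7r, Tcf7, Cdkn1b and Ccnd3 lie below 0 in both.

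Of 20 T cell state genes, 0 were at least 2-fold higher and 2 at least 2-fold lower in mitotic-gate T cells under anti-PD-1. Of all genes, 3.51% were higher and 1.18% lower there. Under anti-TIGIT 1 was higher and 3 lower, beside 5.64% and 5.1% of all genes. The medians of the list were -0.38 and -0.32. Il7r, the receptor of the survival cytokine IL-7, was at 102 against 346 CPM (log2 ratio -1.77) and at 122 against 434 CPM (-1.83). Tcf7, a factor of naive and stem-like T cells, was at -1.23 and -1.06. Both genes of resting and memory T cells were thus lower in CPM in both libraries. Pdcd1 was at 390 against 640 CPM (-0.72) in the anti-PD-1 library and at 249 against 226 CPM (0.14) in the anti-TIGIT library, and Tox at -0.26 and 0.34. Gzma was at 30.9 against 42.9 CPM (-0.47) and at 343 against 105 CPM (1.71), and under anti-PD-1 it turned to 0.41 in Xist-positive cells. Tnfrsf9, a costimulatory receptor, was at 0.15 and 0.83, and under anti-PD-1 it turned to -0.29 with a gate of at least 10 genes and to -0.19 with the thinned gate. Il2ra was at 0.37 and 0.49. The checkpoint receptors Tigit, Lag3, Ctla4 and Havcr2 were between -0.55 and -0.08 under anti-PD-1 and between -0.66 and -0.05 under anti-TIGIT. Further genes of the list were Cxcr6 (-0.67 and -0.94), Itgae (-0.54 and -0.69), Gzmb (-0.70 and -0.10), Gzmk (-0.23 and -0.48), Prf1 (0.33 and -0.65), Ifng (-0.35 and -0.24), Ccr7 (-0.73 and -0.29) and Foxp3 (-0.04 and -0.45).

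In mitotic-gate cells of other lineages most or all S phase genes were also higher, whereas the D cyclins differed. In OPCs of the anti-PD-1 library (27 against 645 cells), all 16 S phase genes that passed the minimum were at least 2-fold higher and 0 at least 2-fold lower, beside 5.94% and 9.34% of all genes. Ccnd1 was at 1618 against 1475 CPM in these OPCs (0.13, -0.01 to 0.27), and Hmgb2 at 1824 against 62.4 CPM (4.87, 4.64 to 5.10). In cDC1 of that library (35 against 261 cells) all 16 that passed were at least 2-fold higher and 0 at least 2-fold lower, beside 5.44% and 4.55%, and Ccnd1 and Ccnd2 were at -0.41 (-0.80 to -0.04) and -0.62 (-1.15 to -0.12). In plasma cells (26 against 710 cells, and 19 against 239) all 17 were at least 2-fold higher in both libraries, beside 18.3% and 33.9% of all genes, and 0 at least 2-fold lower, beside 2.16% and 2.38%. The median of all genes was itself 0.45 and 0.73 there. Ccnd2 was at 222 against 82.1 CPM (1.43, 1.15 to 1.70) and at 192 against 117 CPM (0.72, 0.35 to 1.07) in plasma cells, and Ccnd3 was at 1.24 and 1.41. In microglia of the anti-PD-1 library (17 against 1619 cells) 14 of 16 S phase genes were at least 2-fold higher and 0 at least 2-fold lower, beside 7.86% and 8.27%. The exceptions were Mcm3 at 0.88 (-0.04 to 1.67) and E2f1, with 1 UMI in mitotic-gate microglia, at 0.01. Ccnd2 was at 109 against 43.8 CPM in microglia (1.32, 0.61 to 1.95). Among the T cell classes of that library, 15 of 16 were at least 2-fold higher in conventional CD4 T cells, beside 7.25% of all genes, and 15 of 16 in regulatory T cells, beside 7.44%. In CPM, Ccnd2 was thus lower in mitotic-gate T cells and higher in mitotic-gate plasma cells and microglia than in other cells of their class. This difference between classes was not tested.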

How the data were processed

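Both single-cell libraries, 1 per treatment, were used. Their deposited files hold raw UMI counts (rows are genes, columns barcodes) from Cell Ranger, version 8.0.0 (anti-PD-1 library) or 8.0.1 (anti-TIGIT library), per the file headers. The build was mm10, and Seurat 5.0.3 and R 4.1.1 are also named, per the submitters' processing notes; how these were used is not given in the sources used here. Barcodes under 200 genes or over 10% mitochondrial UMIs were dropped. Scrublet doublet calls (rate set to 0.8% for each 1000 cells), 622 and 151 barcodes, were dropped too. Classes came from gates on marker genes and were compared where each library held at least 50 cells. Within each library the counts of a class were added up and scaled to CPM. Shares have Clopper-Pearson, sums Poisson and ratios conditional binomial intervals at 95%. Genes needed 10 UMIs over both arms, and 2-fold was counted on log2(CPM + 5); ratios printed for a gene carry no pseudocount. Mki67, Top2a, Pcna, Stmn1, Hmgb2 and the D cyclins were to be given throughout; the last 5 are plotted for every class. Other members were named where they had at least 50 UMIs in a class and were among the 6 widest ratios in either direction, and from the related list the 5 widest in each direction; a few more were named after their values were seen, and 1 T cell state gene is not reported here. The members and lists were chosen with earlier results of these data known. Calculations used scanpy 1.11.5, igraph 0.11.9, scipy 1.17.1, pandas 2.3.3 and numpy 2.4.6 in Python 3.11.15, and were tested on simulated data. Alternatives covered cell filters, doublets, gate minimum, thinning, pseudocount, clusters in place of gates, and Xist-positive or Y-linked cells only.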

Additional observations from a re-analysis of the deposited data

How the results depend on the processing

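No paired analysis was possible because each group has 1 library, and for the same reason no replicate could be left out. Over 119 results and 935 alternative values, 769 lay within the counting interval of the value reported and 150 outside it, and 16 more turned against a reported value whose own interval left out 0. In all, 97 had the sign opposite to the reported value, and for 16 of the 97 the alternative's own interval left out 0. The 769 and 150 include counts of members past 2-fold over all cells, which have no such interval. These counts, reported as 0, were taken as kept only where they stayed at 0. Shares are given as anti-PD-1 minus anti-TIGIT in percentage points. The mitotic-gate difference over all cells, -0.21, was 0.76 at 1 gene, 0.61 when thinned to 2000 UMIs and 0.48 without thinning, each with an interval above 0; in CD8 T cells, from -0.61, it was 2.05 and 1.12 under the first 2 of these; in microglia it was 0.81 in Xist-positive cells. The replication-gate difference moved at 1 gene to 0.97 in all cells, -2.64 in border macrophages, 9.35 in B cells, 3.54 in oligodendrocytes and -15.1 in NK cells. Without thinning it was 2.27 in all cells, 2.85 in microglia (from -0.43), 1.45 in border macrophages, 9.78 in OPCs, 6.76 in cDC1 (from -1.35), 7.62 in B cells (from -0.83) and 2.70 in oligodendrocytes. In Xist-positive cells it was 4.49 in cDC1, -5.71 in cDC2, -7.69 in B cells and 8.24 in NK cells, and among Y-linked-transcript cells 0.9954 in microglia, 7.26 in OPCs and -15.0 in monocytes. The summed G2/M log2 ratio was -0.61 among Xist-positive cells, -0.093 among cells with Y-linked transcripts and -0.067 after thinning, and the S phase sum 0.10 after thinning; 1 member was past 2-fold higher in cells with Y-linked transcripts and 2 past 2-fold lower in Xist-positive cells. Directions turned after thinning for Ccna2 (0.12), Cdc20 (0.31), Aurka (0.44) and Ccnd3 (-0.10). They turned in cells with Y-linked transcripts for Ccnb1 (0.48, from -0.10), Cenpe (0.40), Cenpf (0.24) and the G2/M sums of CD8 (0.088) and conventional CD4 T cells (0.15). In Xist-positive cells they turned for Ccnd2 (0.18), Hmgb2 (0.12), Birc5 in CD8 T cells (-1.28, from 0.22), Ccnd1 in OPCs (-0.22), the G2/M sums of conventional CD4 T cells (0.13) and microglia (1.84), and Gzma in mitotic-gate T cells under anti-PD-1 (0.41). Tnfrsf9 there turned at 10 genes (-0.29) and with the thinned gate (-0.19), settings chosen after seeing the data. The causes were not tested. Clusters gave no group named regulatory T cells, and Xist-positive regulatory T cells were under 10 in a library, so neither gave a value. In classes with under 10 mitotic-gate cells in a library, depth and cell number do not allow a ratio of G2/M genes to be told from the content of a few cells.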

Other observations

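The 75 related cell cycle genes outside the 44 (inhibitors, kinases and Rb-E2F factors, and genes of replication, mitosis, checkpoints, chromatin and cytoskeleton) all passed the minimum over all cells, and 0 were past 2-fold between the libraries, with a median log2 ratio of -0.03. As among the 44, the mitotic group was mostly lower in the anti-PD-1 library (20 of 26 genes) and the replication group mostly higher (12 of 18). Ordered on log2(CPM + 5), the lowest were Hist1h1b, at 9.98 and 19.1 CPM (-0.94, -1.08 to -0.79), the cyclin-dependent kinase inhibitor Cdkn1c (-0.65), Anln, an actin-binding protein of cytokinesis (-0.62), Cdkn1a, which encodes p21 (-0.55), and Cks2 (-0.51). The highest in that order were Cdkn2a, at 12.1 and 4.76 CPM (1.34, 1.12 to 1.58), Cdkn2c (0.62), E2f4 (0.37), Tubb5 (0.33) and Cdk4, the kinase partner of the D cyclins (0.32). These ratios carry no pseudocount. Without it Hmmr (-0.57) and Bub1b (-0.55) also lay below Cks2, and E2f7 (0.47, on 110 and 39 UMIs) and Dut (0.34) above Tubb5. Anln was read in 20.7% and 27.2% of cells, whereas the unthinned mitotic gate held 2.70% and 2.21%. Its ratio is therefore not one of mitotic-gate cells alone.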
